A study of Mus musculus with 12 samples.

Results

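The comparison described here is that of Runx1mut with wildtype LSK cells of mouse bone marrow, 6 of the 12 RNA-seq libraries of the series, chosen by their labelled genotype. LSK cells are lineage-negative cells with the surface proteins Kit and Sca-1, which together define a compartment of blood stem cells and multipotent progenitors. The sorted cells were also GFP-positive, and they were taken from the marrow of mice that were secondary recipients of a transplant of donor progenitors. Runx1mut cells carried the mutation Runx1S291fsX300, a frameshift (3 libraries, A021, A042 and A058). Their label names no change of miR-146a, which is taken here as intact. Wildtype cells, titled Empty, were wildtype for both genes (3 libraries, A015, A040 and A053). The other 6 libraries are labelled as lacking miR-146a, which dampens innate immune signals: 3 were miR146aKO and 3 carried Runx1S291fsX300 as well (miR146aKO_Runx1mut). They serve here only as a separate pair of genotypes for the same mutation. The labels used here do not give what Empty stands for, how mutant Runx1 entered the cells, the sex or age of the mice, or whether each library of a group stands for its own animal. The p-values below therefore measure the spread between these libraries, which may be technical.

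RUNX1 is a transcription factor that binds DNA through its runt domain together with the partner CBFB, and recruits activators or repressors. It is needed for the first blood stem cells of the embryo. In adult marrow it helps to set the output of megakaryocytes, lymphocytes and granulocytes. Truncating mutations that spare the runt domain but lose the C-terminal part are known from myelodysplastic syndrome and acute myeloid leukaemia, and can act against the intact protein. A change seen in bulk sorted cells can come from fewer cells of a type or from less RNA per cell, and these cannot be told apart here.

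Counts per library ran from 4387524 to 7026393 over the 6 libraries, and Rn45s, the ribosomal RNA precursor, held 3.91% to 16.4% of all counts. Spearman correlations of counts over the 12744 genes tested ran from 0.807 to 0.858 among wildtype libraries, from 0.847 to 0.892 among Runx1mut libraries, and from 0.795 to 0.905 between the groups. The Runx1mut library A042 stood apart from the other two of its genotype. Its correlation with the wildtype library A015, 0.905, was the highest of all pairs among the 6 libraries, above every pair within a genotype, against 0.849 with A021 and 0.847 with A058. Its label was kept, and for many lists, though not all, the median or the counts without it are given as well. Among the genes tested, 60.0% of the levels in A042 lay within the wildtype range, against 51.4% in A021 and 53.2% in A058. The groups also differed in sex-linked transcripts. The mean level of 4 Y-linked genes was 0.137, 7.99 and 1.89 CPM (counts scaled to library size) in the wildtype libraries A015, A040 and A053, and 36.7, 42.4 and 6.54 CPM in the Runx1mut libraries A021, A042 and A058. Xist, the RNA that silences an X chromosome in female cells, stood at 4452, 2903 and 704 CPM in wildtype and 20.9, 348 and 2772 CPM in Runx1mut. A058 lay within the wildtype range on both measures, while A021 and A042 lay outside it. Sex-linked level and genotype thus move together only in part. Their parts in a result cannot be told apart beyond the fit with a Y-linked covariate given below.

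The gate genes were present. Kit, the stem cell factor receptor, was measured at 436, 363 and 218 CPM in wildtype and 113, 711 and 100.6 CPM in Runx1mut, and Ly6a, which encodes Sca-1, at 162, 216 and 45.99 CPM in wildtype and 20.4, 222 and 172 CPM in Runx1mut. Throughout, values are in the order A015, A040 and A053 for wildtype and A021, A042 and A058 for Runx1mut. For both genes the groups overlapped, and their log2 fold changes were -0.14 for Kit and -0.03 for Ly6a. For Kit the overlap came from A042 alone, and without A042 its log2 fold change was -1.66 (unadjusted p = 0.00349, adjusted p = 0.389 by edgeR's quasi-likelihood test). Without A021 it was 0.27 and without A058 0.28. For Ly6a it ran from -0.56 without A042 to 0.48 without A021. Of genes that mark lineage cells, Cd3e of T cells was at 0.137, 0.222 and 0.142 CPM in wildtype and 2.84, 0 and 2.05 CPM in Runx1mut. Itgam, the CD11b chain of myeloid cells, was detected in every library, at 66.5, 52.6 and 120 CPM in wildtype and 324, 41.5 and 150 CPM in Runx1mut. Cd3e was thus low in all 6 libraries while Itgam was not.

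Runx1 itself (chromosome 16, 92601466 to 92826149, minus strand, GRCm38) was measured at 241, 359.5 and 237 CPM in wildtype and 199.5, 609 and 312 CPM in Runx1mut. The groups overlapped, A042 was the highest of the 6 and A021 the lowest, and the log2 fold change was 0.42, SE 0.44. It was -0.12 without A042 and -0.28 with the Y-linked covariate. A count per gene shows neither the frameshift nor whether reads came from the cell's own gene or from an introduced copy. Its relatives Runx2, a factor of bone and plasmacytoid dendritic cells, at 171, 131 and 279 CPM in wildtype and 161, 328 and 232 CPM in Runx1mut, and Runx3, a factor of lymphocytes, at 100, 214 and 206 CPM in wildtype and 146.4, 225 and 116 CPM in Runx1mut, overlapped as well, with log2 fold changes of 0.31 and -0.09. Cbfb, the binding partner of all RUNX proteins, was at 135, 232 and 188 CPM in wildtype and 159, 121 and 113 CPM in Runx1mut (log2 fold change -0.50). None of the 7 genes of this family and its co-repressors had an unadjusted p under 0.05 or separate groups. Mir146, which encodes miR-146a, had 0 counts in all 6 libraries and was not tested. Of the 6 libraries labelled as lacking miR-146a, A031 of miR146aKO_Runx1mut had 14 counts, which goes against its label, and the other 5 had 0. Since wildtype libraries also had 0, the count does not check the label of those 5.

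No gene passed an adjusted p of 0.05 for Runx1mut against wildtype in edgeR's quasi-likelihood test over 12744 genes (0% called), and the smallest adjusted p was 0.083. An unadjusted p under 0.05 was reached by 704 genes (5.52%), of which 337 were higher (2.64%) and 367 lower (2.88%), where 5% of the genes tested would be 637. The log2 fold change was above 0 for 50.3% of genes and under 0 for 49.5%. The 3 Runx1mut libraries all lay above or all below the 3 wildtype libraries for 1546 genes (12.1%), above for 5.72% and below for 6.41%. Other tools differed. DESeq2 called 117 genes and limma-voom called 0. With the low-count filter removed, edgeR called 162. Without A042 edgeR called 2 genes, Dok3 (log2 fold change 4.76, adjusted p = 0.0241) and Anxa1 (3.91, adjusted p = 0.0497), and without any other of the 6 libraries it called none. The median standard error of a log2 fold change was 0.80, so small differences were not detectable with this spread.

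Since no gene was called, the genes below were ranked by unadjusted p among those with a mean level of at least 2 on the log2 CPM scale and groups that did not overlap, 12 in each direction. Their fold changes describe that choice. DESeq2 called 22 of the 24. Where a gene overlaps another on the opposite strand their reads cannot be told apart, since the libraries did not keep strand. This holds for Sla with Tg, Hvcn1 with Tctn1, Grap with Slc5a10, Rbm3 with Rbm3os, Dock1 with Fam196a, Atg9b with Nos3, Ablim1 with 4930449E18Rik and Ccnd2 with 9330179D12Rik. Ifitm1, Ifitm3, Lilrb4a and Serpinb1a have close relatives with which reads may have been shared.

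Dok3 and B3gnt5 stood first in the 2 directions, each with an adjusted p of 0.083. Dok3 (chromosome 13, 55523231 to 55529296, minus strand), an adaptor that dampens immune receptor signals, was measured at 1.92, 3.997 and 3.99 CPM in wildtype and 117, 28.3 and 62.5 CPM in Runx1mut. Every Runx1mut library was above every wildtype library, with A042 the lowest of the 3, and the log2 fold change was 4.39, SE 0.63. B3gnt5 (chromosome 16, 19760208 to 19772753, plus strand), which starts the sugar chain of lacto-series glycolipids, was at 29.8, 57.5 and 42.4 CPM in wildtype and 3.12, 1.28 and 2.74 CPM in Runx1mut. All 3 Runx1mut libraries were far below wildtype, A042 included (log2 fold change -4.17, SE 0.64). Ablim1 (chromosome 19, 57032733 to 57314919, minus strand), an actin-binding LIM protein, was at 55.1, 46.4 and 82.9 CPM in wildtype and 7.10, 6.97 and 12.3 CPM in Runx1mut and was likewise low in each Runx1mut library (log2 fold change -2.81, SE 0.60). With the Y-linked covariate the log2 fold changes were 3.96 for Dok3, -3.95 for B3gnt5 and -2.42 for Ablim1.

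The stretches around the starts of these 3 genes are shown because RUNX proteins bind the letters TGTGGT, on either strand. Only these letters were searched, and other forms of the RUNX site may be present in the stretches. The stretches run from 250 bases before to 50 after the RefSeq start (GRCm38.p6), 5′ to 3′ on the gene's strand, with any match in capitals. For Ablim1 it is the first of 5 listed starts.
Dok3 (chr13:55528489-55528788, minus strand): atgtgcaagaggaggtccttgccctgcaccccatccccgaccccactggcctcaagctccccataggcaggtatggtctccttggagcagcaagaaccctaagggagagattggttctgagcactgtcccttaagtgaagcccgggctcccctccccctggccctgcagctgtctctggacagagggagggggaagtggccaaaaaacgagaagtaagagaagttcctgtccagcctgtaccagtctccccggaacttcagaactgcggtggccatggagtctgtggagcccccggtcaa
B3gnt5 (chr16:19759984-19760283, plus strand): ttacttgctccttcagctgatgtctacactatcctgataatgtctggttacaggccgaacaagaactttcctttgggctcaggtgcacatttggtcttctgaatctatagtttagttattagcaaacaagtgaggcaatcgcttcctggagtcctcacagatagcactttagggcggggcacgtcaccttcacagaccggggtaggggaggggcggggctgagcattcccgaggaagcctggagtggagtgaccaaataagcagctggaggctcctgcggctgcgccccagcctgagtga
Ablim1 (chr19:57314870-57315169, minus strand): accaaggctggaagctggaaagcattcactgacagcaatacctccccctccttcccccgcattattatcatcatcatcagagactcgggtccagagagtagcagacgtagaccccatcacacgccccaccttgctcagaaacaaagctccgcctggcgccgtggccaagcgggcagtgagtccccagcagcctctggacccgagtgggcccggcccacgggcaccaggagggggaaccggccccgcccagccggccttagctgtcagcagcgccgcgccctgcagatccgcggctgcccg
None of the 3 windows holds those letters on either strand (ACCACA on the other strand), so there are no capitals. Of the 24 genes, 12 had a window in the RefSeq table and 0 of these held the letters, against 13.1% of 9727 windows of genes tested and 16.9% of all 27025. Among genes with an unadjusted p under 0.05, the share was 15.9% of 252 higher genes and 12.1% of 272 lower ones. These are counts of letters in a short window and say nothing of where RUNX1 was bound.

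Among the other higher genes, Itgb2, the CD18 chain of leukocyte integrins, was at 45.4, 79.7 and 24.4 CPM in wildtype and 305, 201 and 243 CPM in Runx1mut (log2 fold change 2.33, SE 0.46). Sla, an adaptor that lowers antigen receptor signalling, was at 68, 59.3 and 78.03 CPM in wildtype and 342, 391 and 277 CPM in Runx1mut (log2 fold change 2.30, SE 0.42), and its 3 values in each group lay close together. Hvcn1, a proton channel of phagocytes and B cells, was at 10.4, 18.7 and 14.8 CPM in wildtype and 72.5, 75.7 and 57.8 CPM in Runx1mut (log2 fold change 2.23, SE 0.44). For these 3 genes A042 was as far from wildtype as the other Runx1mut libraries or nearly so, unlike for the stem cell and neutrophil lists described below. Lilrb4a, an inhibitory receptor of myeloid cells, was at 4.24, 4.22 and 0.997 CPM in wildtype and 20.2, 77.3 and 35.1 CPM in Runx1mut. Grap, an adaptor of lymphocyte receptors, was at 0.958, 0.222 and 7.69 CPM in wildtype and 16.6, 40.3 and 62.96 CPM in Runx1mut, and Arrb2, beta-arrestin 2, which ends signalling of G protein-coupled receptors, at 48.4, 45.3 and 65.6 CPM in wildtype and 247, 161 and 97.4 CPM in Runx1mut. The log2 fold change of Arrb2 was 1.665, and 1.01 with the Y-linked covariate (unadjusted p = 0.114 by edgeR's quasi-likelihood test).

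The other 5 higher genes follow. Hdc, the enzyme that makes histamine, was at 3.01, 22.7 and 3.13 CPM in wildtype and 135, 265 and 348 CPM in Runx1mut (log2 fold change 4.72, SE 0.98), high in all 3 Runx1mut libraries. Serpinb1a, an inhibitor of neutrophil proteases, was at 44.1, 131 and 142 CPM in wildtype and 454, 339 and 339.6 CPM in Runx1mut. Atf4, a transcription factor of the integrated stress response, was at 136, 113 and 145 CPM in wildtype and 339.8, 216 and 406 CPM in Runx1mut, and Rbm3, an RNA-binding protein induced by cold, at 202, 125 and 190.2 CPM in wildtype and 476, 464 and 347 CPM in Runx1mut. The fold changes of Atf4 and Rbm3 were small beside those of the others, 1.29 and 1.31 on the log2 scale, and so were their standard errors, 0.33 and 0.34. Ddx3y is 1 of the 4 Y-linked genes given above and was at 0.411, 1.33 and 0.142 CPM in wildtype and 35.9, 42.97 and 13.9 CPM in Runx1mut. Here A058 lay above wildtype, unlike in the mean of the 4 genes. The log2 fold change of Ddx3y was 5.66, and 3.03 with the Y-linked covariate, of which it is a part.

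**Figure D1:**
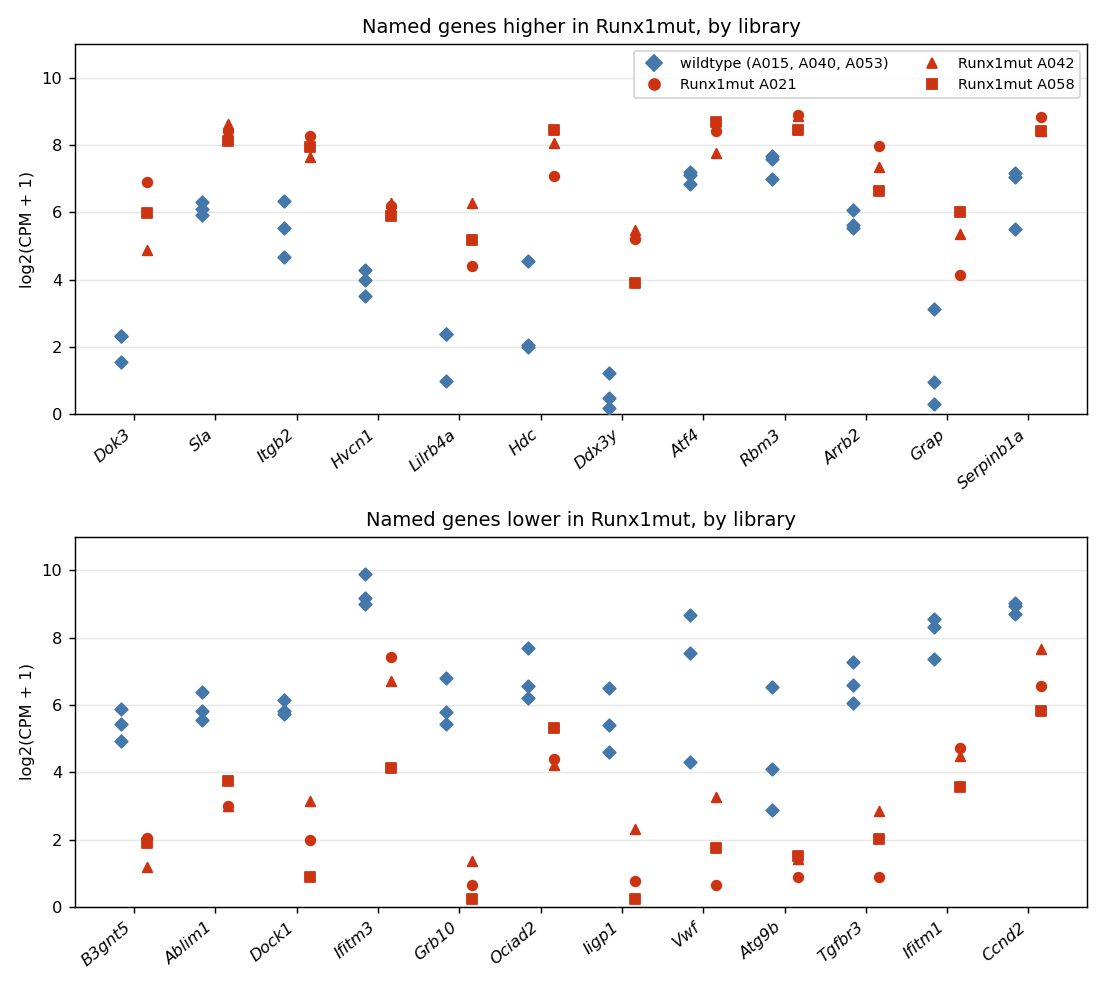
Level of each of the 24 named genes by library, as log2 of CPM plus 1, with genes higher in Runx1mut in the upper panel and lower genes in the lower panel. Diamonds are the 3 wildtype libraries, and the circle, triangle and square are the Runx1mut libraries A021, A042 and A058. Groups do not overlap by the way the genes were chosen, and the gap between groups is widest for Grb10 and Tgfbr3 and narrowest for Arrb2 and Atf4.

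Among the lower genes, Grb10, an adaptor that restrains insulin receptor signalling, was at 112, 42.6 and 55.1 CPM in wildtype and 0.568, 1.57 and 0.171 CPM in Runx1mut (log2 fold change -6.45, SE 1.51), the largest difference of the 24. Dock1, which activates the small GTPase Rac in cell movement, was at 69.5, 52.2 and 55.4 CPM in wildtype and 2.98, 7.97 and 0.855 CPM in Runx1mut (log2 fold change -3.90, SE 0.84). Tgfbr3, a co-receptor of TGF-beta, was at 154, 96.4 and 65.9 CPM in wildtype and 0.851, 6.26 and 3.08 CPM in Runx1mut. These were near the bottom of the range in all 3 Runx1mut libraries, with A042 the highest of the 3 for each. Ccnd2, the D-type cyclin that moves cells out of G1, was at 526, 496 and 415 CPM in wildtype and 94.5, 204 and 56.1 CPM in Runx1mut (log2 fold change -2.02, SE 0.53). Ociad2 was at 93.7, 207 and 72.9 CPM in wildtype and 20.01, 17.8 and 39.4 CPM in Runx1mut, and Atg9b, an autophagy protein, at 6.43, 92.8 and 16.2 CPM in wildtype and 0.851, 1.71 and 1.88 CPM in Runx1mut. The other 4 lower genes, Vwf, Ifitm3, Ifitm1 and Iigp1, are given with their lists below.

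Gene lists are described by the number of members on each side, beside the shares over all genes tested given above. Their level in a library is the mean log2 CPM of the tested members. For all genes tested the median log2 fold change was 0.005.

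By list level, genes of stem cell identity were lower in A021 and A058 and within the wildtype range in A042, though single members in A042 lay outside it. Of 31 transcriptional and other regulators of stem cells, 26 were lower, 5 of them at an unadjusted p under 0.05, and none of the 5 higher ones reached it. The median log2 fold change was -1.18. Groups were separate for 8 lower members (25.8%) and 1 higher member, Lyl1. The list level was 6.81, 5.50 and 5.22 in wildtype and 3.45, 5.76 and 3.79 in Runx1mut, so A042 fell between the wildtype libraries. In A021 64.5% and in A058 54.8% of the members lay below the lowest wildtype library, against 29.0% in A042.

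The members of smallest p included Mllt3, a chromatin reader that sustains stem cell self-renewal, at 369.8, 269.6 and 112 CPM in wildtype and 4.97, 78.7 and 12.8 CPM in Runx1mut, and Msi2, an RNA-binding protein of the same compartment, at 333, 511 and 689 CPM in wildtype and 110.4, 279 and 170.4 CPM in Runx1mut. Nkx2-3, a homeobox factor, was at 40.8, 38.9 and 10.4 CPM in wildtype and 0.993, 4.55 and 0.513 CPM in Runx1mut. A042 was the highest of the 3 Runx1mut libraries for each, though still below wildtype. Ndn, a growth suppressor of quiescent stem cells, had only 7 counts in Runx1mut and 254 in wildtype. Ifitm1, counted in this list and among interferon genes, was at 375, 319.5 and 166 CPM in wildtype and 25.5, 21.6 and 10.8 CPM in Runx1mut (log2 fold change -3.89, SE 1.02). Hlf and Mecom, stem cell factors named here after their values were seen, show how far A042 lay from the other two. Hlf was at 699, 388 and 281 CPM in wildtype and 40.7, 382 and 11.5 CPM in Runx1mut, and Mecom at 248, 90.8 and 55.5 CPM in wildtype and 0.426, 48.1 and 1.37 CPM in Runx1mut. Without A042 the number of lower regulators at an unadjusted p under 0.05 was 12, without A015 or A021 it was 3, and the median ran from -0.59 without A015 to -1.93 without A042, and was -2.32 with the Y-linked covariate.

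Stem cell surface genes gave 20 lower of 27, at a median log2 fold change of -0.56. In A042 37.0% of members lay above the highest wildtype library and 11.1% below the lowest. In A021 7.41% lay above and 66.7% below, and in A058 11.1% above and 55.6% below. At an unadjusted p under 0.05 there were 2 lower and 1 higher (0 higher without A015 or A042). Vwf, von Willebrand factor, which marks platelet-primed stem cells, was at 410.2, 188 and 18.9 CPM in wildtype and 0.568, 8.68 and 2.40 CPM in Runx1mut (log2 fold change -5.72, SE 1.49). Neo1, the receptor neogenin, was at 232, 93.3 and 68.3 CPM in wildtype and 0.142, 0.285 and 1.88 CPM in Runx1mut, low in all 3 Runx1mut libraries. Procr, the receptor EPCR of dormant stem cells, was at 269, 166 and 92.8 CPM in wildtype and 1.70, 41.3 and 0.342 CPM in Runx1mut. The higher member at that threshold was Cdh5, VE-cadherin, with 0 counts in wildtype and 36 in Runx1mut, nearly all in A042. Cd48, a marker of more mature progenitors, was at 12.3, 47.5 and 107 CPM in wildtype and 104, 196 and 93.8 CPM in Runx1mut, and its groups overlapped. Without A042, 10 members were lower and 0 higher at that threshold and the median was -1.90. Without A021 the median was -0.26 with 12 of 27 higher, without A015 it was -0.36, and with the Y-linked covariate it was -1.83.

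Homeobox genes of the Hox, Meis and Pbx families, which maintain progenitor growth, were lower for 16 of 19, at a median log2 fold change of -1.18. None had an unadjusted p under 0.05 in either direction. Without A042 3 lower members did, without A058 1, and without A015 2 higher ones. The median was -0.71 without A021, -0.75 without A053 and -2.64 without A042. Pbx2, at 39.1, 13.8 and 9.82 CPM in wildtype and 49.8, 52.6 and 32.2 CPM in Runx1mut, had the smallest p and lay on the higher side. Pknox1, a partner of Pbx proteins, was at 30.4, 57.96 and 77.9 CPM in wildtype and 27.1, 29.02 and 29.6 CPM in Runx1mut with separate groups. Hoxa5 was at 17.4, 15.3 and 3.42 CPM in wildtype and 0, 6.40 and 1.03 CPM in Runx1mut and Hoxa7 at 23.1, 0.222 and 109 CPM in wildtype and 9.22, 24.3 and 5.99 CPM in Runx1mut, with wide spread in wildtype.

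**Figure D2:**
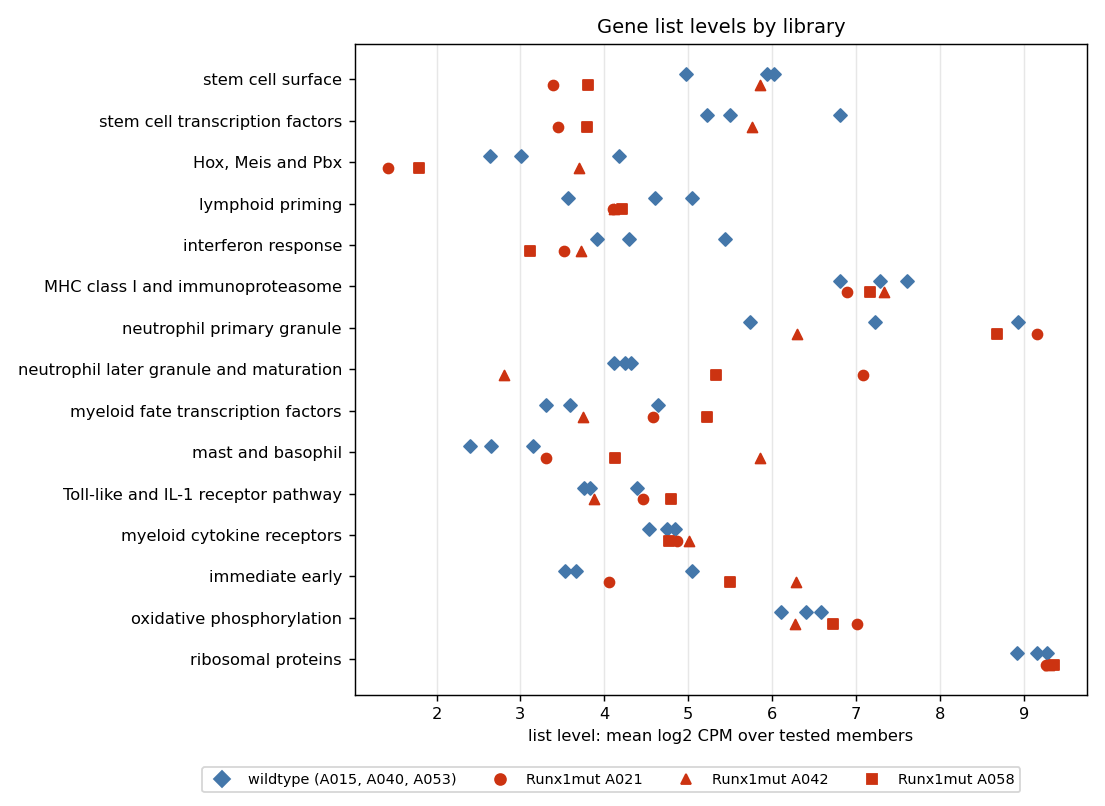
Level of 15 gene lists by library, as the mean log2 CPM over tested members on the x axis. Diamonds are the 3 wildtype libraries, and the circle, triangle and square are the Runx1mut libraries A021, A042 and A058. The interferon list is the one drawn whose 3 Runx1mut values, 3.11 to 3.72, all lie below the 3 wildtype values, 3.91 to 5.44, and the mast and basophil list the one whose Runx1mut values, 3.31 to 5.86, all lie above, 2.40 to 3.15.

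Of the 39 lists, interferon response genes were the 1 whose level was lower in every Runx1mut library than in every wildtype library, and 2 had a higher level in that sense, the mast and basophil list and the Bcl2 family list. Of 45 members tested 40 were lower, 8 of them at an unadjusted p under 0.05, and of the 5 higher ones none reached it. The median log2 fold change was -0.94, and groups were separate for 9 lower members (20.0%) and 0 higher. The list level was 5.44, 4.29 and 3.91 in wildtype and 3.52, 3.72 and 3.11 in Runx1mut. A015 was the highest by a wide margin, and without it the median was -0.50 with 5 lower members at that threshold, as many as without A058. Without A042 there were 9, with a median of -1.30.

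Ifitm3, a membrane protein that blocks viral entry, was at 944, 582 and 511 CPM in wildtype and 173, 104 and 16.6 CPM in Runx1mut (log2 fold change -2.80, SE 0.62), with A058 the lowest by far. Iigp1, a GTPase induced by interferon gamma, was at 90.2, 23.5 and 41.7 CPM in wildtype and 0.710, 3.98 and 0.171 CPM in Runx1mut (log2 fold change -4.97, SE 1.27), and Gbp6, a guanylate-binding protein, at 23.3, 8.66 and 15.7 CPM in wildtype and 0.568, 0.285 and 1.03 CPM in Runx1mut. Both were far lower in every Runx1mut library. Irf1, a transcription factor of interferon gamma signalling, was at 77.7, 124 and 48.6 CPM in wildtype and 20.3, 37.7 and 18.99 CPM in Runx1mut, lower in each Runx1mut library (log2 fold change -1.70, SE 0.51). The related list of antigen presentation on MHC class I showed smaller differences. There 13 of 16 members were lower with a median of -0.13, none reached an unadjusted p under 0.05, and B2m, the invariant chain, was at 3435, 3551 and 3300 CPM in wildtype and 1874, 2392 and 3295 CPM in Runx1mut. Without A015 the majority of that list turned, with 10 of 16 higher and a median of 0.07, and without A040 the median was -0.37.

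The later neutrophil genes were high in A021 and A058 and not in A042. Of 20 genes of later granules and maturation 17 were higher, 6 of them at an unadjusted p under 0.05, with 1 lower (0 without A040, A053, A042 or A058), and the median log2 fold change was 1.91. No higher member had separate groups. The list level was 4.11, 4.32 and 4.25 in wildtype and 7.08, 2.80 and 5.33 in Runx1mut, so A042 was the lowest of all 6. In A021 80.0% and in A058 60.0% of members lay above the highest wildtype library, and in A042 0 of 20 did and 45.0% lay below the lowest. Without A042 11 members were higher at that threshold with a median of 2.46, and without A021 1 was higher and 4 lower with a median of 0.99. With the Y-linked covariate 2 were higher.

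Anxa1, annexin A1 of neutrophils, was at 55.8, 85.5 and 90.4 CPM in wildtype and 606, 77.8 and 1712 CPM in Runx1mut. S100a9, a subunit of calprotectin, was at 396, 492 and 762 CPM in wildtype and 12340, 209 and 2159 CPM in Runx1mut, and its partner S100a8 at 219.5, 1069 and 586 CPM in wildtype and 7627, 163 and 2818 CPM in Runx1mut. Chil3, a secreted chitinase-like protein, was at 31.3, 55.3 and 87.7 CPM in wildtype and 2647, 40.4 and 295 CPM in Runx1mut, and Lcn2, which binds bacterial siderophores, at 59.1, 206 and 143 CPM in wildtype and 1383, 36.1 and 563 CPM in Runx1mut. For each of these 5 genes A042 lay within or below the wildtype range while A021 and A058 were above it. Genes of primary granules, which form earlier, showed wide spread in wildtype. The level of that list was 5.74, 8.93 and 7.22 in wildtype and 9.15, 6.30 and 8.68 in Runx1mut, so A058 and A042 lay within the wildtype range. There 12 of 14 were higher with a median of 0.79, none at an unadjusted p under 0.05 (4 higher without A040, 1 higher without A042, 1 lower without A015 or A021). The median was 0.41 without A015, 0.40 without A021, 1.30 without A042 and 2.09 without A040. Ms4a3 of early granulocytic cells was at 13.1, 384 and 46.99 CPM in wildtype and 905, 50.7 and 757 CPM in Runx1mut, Igsf6 at 19.02, 346 and 82.9 CPM in wildtype and 671, 46.7 and 647 CPM in Runx1mut and Srgn, the granule proteoglycan, at 351, 696 and 428 CPM in wildtype and 926, 678 and 659.5 CPM in Runx1mut. Nkg7, a granule protein shared with killer cells, went the other way, at 25.6, 285 and 148 CPM in wildtype and 64.9, 4.70 and 21.4 CPM in Runx1mut. Cst7, a cystatin, was at 7.25, 150.6 and 40.01 CPM in wildtype and 247, 152 and 185 CPM in Runx1mut, barely separate.

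Transcription factors of myeloid fate were higher for 19 of 22, at a median log2 fold change of 0.66. Of these 4 reached an unadjusted p under 0.05 (2 without A053 or A021, 1 without A058), and 1 lower member did (0 without A040, 2 without A058). The median was 0.37 without A058 and 0.35 with the Y-linked covariate. Cebpe, a factor of granule formation, was at 2.33, 2.67 and 0 CPM in wildtype and 22.99, 2.85 and 29.9 CPM in Runx1mut, and Cebpd at 5.88, 8.22 and 6.41 CPM in wildtype and 36.2, 9.39 and 52.01 CPM in Runx1mut. Gfi1, a repressor needed for neutrophils, was at 53.1, 70.8 and 39.6 CPM in wildtype and 298, 28.2 and 155 CPM in Runx1mut. All 3 were high in A021 and A058 and not in A042. Klf2, a factor of quiescence and of trafficking, was high in A042 and A058 instead, at 16.4, 3.33 and 0.854 CPM in wildtype and 13.1, 102 and 87.1 CPM in Runx1mut. Maf, a macrophage factor, was the lower one, at 6.29, 50.9 and 4.84 CPM in wildtype and 3.12, 1.42 and 0.684 CPM in Runx1mut (log2 fold change -3.53, SE 1.19).

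Mast cell and basophil genes were led by A042. Of 10 tested 9 were higher, 4 of them at an unadjusted p under 0.05 (1 without A015, 2 without A053 or A042), at a median log2 fold change of 1.87. The list level was 2.65, 3.15 and 2.40 in wildtype and 3.31, 5.86 and 4.13 in Runx1mut. Cpa3, the mast cell carboxypeptidase, was at 5.61, 32.2 and 102 CPM in wildtype and 79.8, 1419 and 70.3 CPM in Runx1mut, and Ms4a2, the beta chain of the IgE receptor, at 0.958, 7.33 and 4.13 CPM in wildtype and 6.39, 222 and 1.88 CPM in Runx1mut. Hpgds, a prostaglandin D synthase, was at 10.3, 12.4 and 5.13 CPM in wildtype and 4.68, 58.8 and 22.9 CPM in Runx1mut. These 3 were high in A042 in particular, whereas Hdc, given above, and Alox5, the 5-lipoxygenase of leukotriene synthesis, at 2.19, 3.78 and 0 CPM in wildtype and 18.3, 29.02 and 41.9 CPM in Runx1mut, were separate between the groups. Without A042 6 of 10 members were higher with a median of 0.20. With the Y-linked covariate 4 of 10 were higher and the median turned to -0.38.

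Receptors of myeloid cytokines did not lean one way as a list, with 14 of 28 higher and a median of -0.01, which ran from -0.20 to 0.27 with 1 library left out. The shared beta chain of the GM-CSF, interleukin-3 and interleukin-5 receptors, Csf2rb, was at 23.3, 205 and 74.6 CPM in wildtype and 523, 256 and 621 CPM in Runx1mut (log2 fold change 2.21, SE 0.60). Its neighbour Csf2rb2, the interleukin-3-specific copy, was at 18.9, 51.5 and 55.7 CPM in wildtype and 79.04, 98.9 and 213 CPM in Runx1mut (log2 fold change 1.63, SE 0.56). Reads of these close relatives may have been split between them, so the 2 values are not independent. Il1rl1, the receptor of interleukin-33, was at 1.23, 0.222 and 0.570 CPM in wildtype and 6.81, 426 and 23.1 CPM in Runx1mut, by far the highest in A042. Tgfbr2, a receptor of TGF-beta, was at 51.99, 23.8 and 29.3 CPM in wildtype and 47.96, 164 and 68.95 CPM in Runx1mut, with overlap. Osmr, the oncostatin M receptor, had 120 counts in wildtype and 0 in Runx1mut. With 3 counts taken as the floor of the Runx1mut group the ratio was 42.3 (lower limit of the 95% counting interval 14.1), but 1 wildtype library also had 0. These were the 4 higher and the 1 lower receptor at an unadjusted p under 0.05. Without A042 there were 6 higher and 2 lower, and without A058 4 higher and 2 lower.

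The pathway of Toll-like and interleukin-1 receptors, which miR-146a restrains, had 20 of 37 members higher and a median of 0.05, which ran from -0.06 to 0.33 with 1 library left out. Groups were nonetheless separate for 8 higher members (21.6%) and 2 lower ones, Tifa and Peli1. The 8 were the receptors Tlr1, Tlr6 and Tlr7, the co-receptor Cd14, the adaptor Myd88, the kinases Irak2 and Irak4, and Sharpin of the linear ubiquitin complex. At an unadjusted p under 0.05 there were 6 higher and 0 lower, and without A015 or A058 there were 3 higher and 1 lower.

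Tlr1, a receptor of bacterial lipopeptides, was at 0.137, 0 and 0 CPM in wildtype and 13.9, 0.285 and 39.7 CPM in Runx1mut, from 1 count in wildtype and 332 in Runx1mut. That ratio was 314 (95% counting interval 56.0 to 12400), and A042 contributed little to it. Tlr7, a receptor of single-stranded RNA on the X chromosome, was at 0.137, 0.888 and 4.70 CPM in wildtype and 21.4, 12.7 and 36.96 CPM in Runx1mut. Tifab, an inhibitor of TRAF6 signalling, was high in A021 and A058 only, at 3.28, 11.3 and 3.28 CPM in wildtype and 88.7, 2.13 and 131 CPM in Runx1mut. Irak2 was at 5.88, 2.67 and 7.83 CPM in wildtype and 10.1, 16.2 and 34.7 CPM in Runx1mut and Sharpin at 20.8, 23.8 and 20.5 CPM in wildtype and 73.8, 33.3 and 54.6 CPM in Runx1mut, both separate between the groups, with log2 fold changes of 1.89 and 1.31. Myd88 was at 22.2, 23.98 and 6.55 CPM in wildtype and 28.1, 34.3 and 29.9 CPM in Runx1mut and Irak4 at 58.6, 35.97 and 19.5 CPM in wildtype and 97.2, 63.7 and 137 CPM in Runx1mut, both named here after their values were seen.

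Immediate early genes, which respond within minutes to growth signals and to cell handling, were higher for 27 of 32. Of these 7 had an unadjusted p under 0.05 (14 without A015, 14 without A021) and none of the 5 lower ones did. The median log2 fold change was 1.04, and it was 0.37 without A042 and 1.65 without A015. The list level was 5.05, 3.66 and 3.53 in wildtype and 4.05, 6.28 and 5.50 in Runx1mut. A021 lay within the wildtype range. Egr3, a zinc finger factor, was at 0.958, 0 and 0.285 CPM in wildtype and 9.22, 36.6 and 6.33 CPM in Runx1mut, and Gadd45a, a stress sensor, at 3.42, 0.444 and 1.71 CPM in wildtype and 13.5, 14.7 and 42.6 CPM in Runx1mut, both with separate groups. Fosb, a subunit of AP-1, was at 140.4, 51.1 and 96.8 CPM in wildtype and 98.9, 766 and 477 CPM in Runx1mut, and Btg2, an antiproliferative gene, at 28.3, 13.6 and 4.27 CPM in wildtype and 18.6, 104 and 104 CPM in Runx1mut. In these 2, as in Klf2 given above, A042 and A058 were high and A021 was not.

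**Figure D3:**
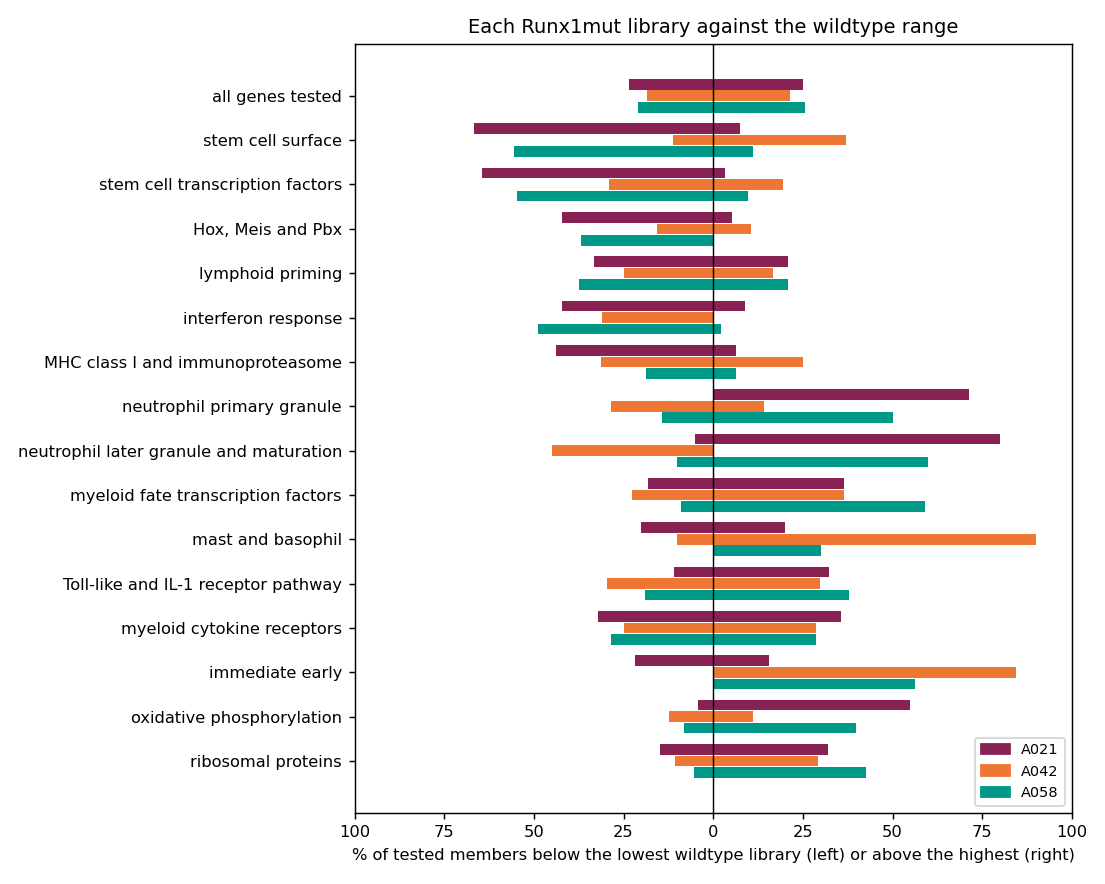
Share of the tested members of each list that lay below the lowest wildtype library (bars to the left) or above the highest (bars to the right) in the Runx1mut libraries A021, A042 and A058, on an axis of percent. All genes tested, at the top, give 18.5% to 23.4% below and 21.5% to 25.7% above. A042 has the opposite lean to A021 and A058 for stem cell surface, primary granule and later neutrophil genes, and narrowly for oxidative phosphorylation genes. It has the longest bars for mast cell and immediate early genes.

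Lymphoid priming genes gave 15 lower of 24 and a median of -0.78, which was 0.30 without A053 and -1.46 with the Y-linked covariate. That library alone had high Dntt, the terminal transferase of early lymphoid cells, at 3.97, 0.666 and 296 CPM in wildtype and 4.82, 4.55 and 3.94 CPM in Runx1mut. More even were Bcl11a, a factor of lymphoid and fetal-globin control, at 283, 223 and 195 CPM in wildtype and 35.9, 122 and 9.07 CPM in Runx1mut (log2 fold change -2.07, SE 0.80), and Mef2c, a factor of lymphoid and myeloid choice, at 306, 128 and 131 CPM in wildtype and 49.8, 127 and 84.4 CPM in Runx1mut. Both had separate groups, as did Tcf3 and Tcf4, the E proteins that drive lymphoid fate. Ly6d, a marker of B-biased progenitors, was at 0, 5.11 and 0.854 CPM in wildtype and 9.65, 0.142 and 50.8 CPM in Runx1mut and Ikzf3, Aiolos, at 0.274, 14.4 and 0.142 CPM in wildtype and 33.9, 0.142 and 120.3 CPM in Runx1mut, with overlap. At an unadjusted p under 0.05 there were 3 lower members (5 without A042) and 0 higher (2 without A042, 3 without A040, 1 without A021).

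A list of 27 genes taken from textbook knowledge as RUNX1 targets gave 16 higher and 11 lower, and a median of 0.33. The median was 0.20 without A021, 0.22 without A015, 0.14 without A042, -0.19 without A058 and 0.17 with the Y-linked covariate. At an unadjusted p under 0.05 there were 4 higher and 1 lower. Without A015 or A053 there was 1 higher, without A021 or A058 there were 2, and without A040, A042 or A058 there were 2 lower. Besides Csf2rb, Cebpe and Gfi1 the higher ones included Itga2b, the platelet integrin CD41, at 94.95, 71.5 and 49.98 CPM in wildtype and 89.4, 1112 and 349 CPM in Runx1mut, high in A042 and A058. Bcl2, the survival gene, was the lower one, at 292, 291 and 715 CPM in wildtype and 66.1, 197 and 95.8 CPM in Runx1mut (log2 fold change -1.85, SE 0.53), and all 3 Runx1mut libraries were below wildtype. Of 23 genes tested from a list of the Bcl2 family and other cell death genes, 17 were higher, with a median of 0.52 (0.29 without A042, 0.24 with the Y-linked covariate). The list level was 4.08, 3.88 and 3.61 in wildtype and 4.34, 4.36 and 4.82 in Runx1mut, higher in every Runx1mut library. At an unadjusted p under 0.05 there were 2 higher (1 without A053, A021 or A058) and 1 lower (2 without A015). Casp8, a caspase of death receptors, was at 109.5, 187 and 128 CPM in wildtype and 87.7, 86.1 and 71.3 CPM in Runx1mut, and Bcl2l2 at 17.9, 7.77 and 3.13 CPM in wildtype and 31.5, 29.3 and 40.4 CPM in Runx1mut, separate in opposite directions. Bcl2a1b and Bcl2a1d, near-identical copies with at most 4 counts in wildtype, stood at 9.65, 0 and 4.28 CPM in Runx1mut and 0.993, 0 and 7.19 CPM in Runx1mut.

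Genes of cell machinery differed little. Of 75 ribosomal protein genes 59 were higher with a median of 0.16 (0.04 without A040, 0.31 without A015, 0.27 with the Y-linked covariate), and none reached an unadjusted p under 0.05 (3 without A015, 2 without A042, 1 without A053). Rps18 was the member of smallest p, at 965, 644 and 741 CPM in wildtype and 1122, 1006 and 1296 CPM in Runx1mut. Of 73 genes of oxidative phosphorylation 49 were higher with a median of 0.27 (0.07 without A021, 0.17 without A015, 0.49 without A053), and 2 reached it (8 without A042, 4 without A053, 1 without A015, 0 without A021). Those were the complex I and IV genes Ndufs6, at 47.1, 46.4 and 26.3 CPM in wildtype and 136, 54.1 and 99.2 CPM in Runx1mut, and Ndufa4, at 129.8, 171 and 191 CPM in wildtype and 305, 404 and 217 CPM in Runx1mut. DNA repair genes were lower for 21 of 29 with a median of -0.37, which was -0.22 with the Y-linked covariate. Without A053 15 of 29 were lower with a median of -0.04. Atm, the kinase that senses double-strand breaks, was the one at an unadjusted p under 0.05 (0 without A053, A021 or A058), at 157, 218 and 244 CPM in wildtype and 65.6, 146.3 and 114 CPM in Runx1mut. Of 15 splicing factors of myelodysplasia 9 were higher, with a median of 0.02, and 1 had an unadjusted p under 0.05. Without A015, A053, A021 or A058, or with the Y-linked covariate, 0 had. Groups were separate for Srsf2 on the higher side and Prpf8 on the lower side. Srsf2, a splicing factor mutated in myelodysplasia, was at 430.4, 676 and 606 CPM in wildtype and 1054, 783 and 978 CPM in Runx1mut, with a log2 fold change of 0.72, SE 0.30.

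Markers of other cells were read in the same libraries. B lineage genes had list levels of 0.47, 1.76 and 1.39 in wildtype and 0.36, 0.18 and 2.93 in Runx1mut, highest in A058. In A058 52.4% of members lay above the highest wildtype library, against 25.7% of all genes tested. Of 21 members 13 were higher, at a median log2 fold change of 0.10. Without A058 3 were higher and the median was -2.59. Plasma cell genes were highest in A058 and next in wildtype A040, with levels of 2.13, 5.31 and 1.81 in wildtype and 2.32, 1.98 and 7.20 in Runx1mut. Of 11 tested 9 were higher, at a median log2 fold change of 1.23. The median was 4.62 without A040 and -3.01 without A058. Of this list Sdc1, which encodes CD138, was at 8.23, 0.854 and 230.3 CPM in Runx1mut, and Mzb1 at 0.284, 0 and 215 CPM in Runx1mut. T and NK genes had levels of 1.54, 1.41 and 1.07 in wildtype and 2.99, 1.02 and 1.37 in Runx1mut. Monocyte and macrophage levels overlapped, at 2.25, 4.69 and 2.60 in wildtype and 3.83, 1.88 and 4.08 in Runx1mut. Erythroid levels were 2.26, 1.06 and 1.27 in wildtype and 0.33, 1.15 and 1.14 in Runx1mut. Thus A021 and A058, which were high in later neutrophil genes and low in stem cell genes, were also the Runx1mut libraries higher in monocyte genes. The part of such cells in these results was not tested.

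The same mutation was then read in cells labelled as lacking miR-146a, in 6 libraries that took no part in the fold changes by which the genes were ranked, though all 12 share 1 estimate of the spread. In miR146aKO_Runx1mut against miR146aKO 14.8% of all genes had an unadjusted p under 0.05, and groups did not overlap for 19.3%. Of the 24 named genes 12 had the same direction as in Runx1mut against wildtype. An unadjusted p under 0.05 was reached by 5 in the same direction, Ablim1, B3gnt5, Rbm3, Serpinb1a and Grb10. It was reached by 5 in the opposite direction, Dok3, Hvcn1, Grap, Vwf and Atg9b. Without A031, the library with Mir146 counts against its label, 5 did so in the same and 6 in the opposite direction. Values below are in the order A047, A150 and A151 for miR146aKO and A001, A031 and A051 for miR146aKO_Runx1mut. The miR146aKO libraries differed from the other groups in cell markers, with B lineage levels of 4.50 to 7.76 against 0.58 to 2.65 in miR146aKO_Runx1mut and 0.18 to 2.93 in the 6 libraries above, and their part in these differences was not tested.

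Ablim1 was at 220, 232 and 339.8 CPM in miR146aKO and 19.8, 6.22 and 41.95 CPM in miR146aKO_Runx1mut, and its groups did not overlap (log2 fold change -3.55, SE 0.61). B3gnt5 was at 81.6, 60.3 and 79.1 CPM in miR146aKO and 19.6, 11.02 and 7.27 CPM in miR146aKO_Runx1mut, again without overlap (log2 fold change -2.54, SE 0.59). Both genes were thus lower with mutant Runx1 in each pair of genotypes, in all 6 mutant libraries against the wildtype or miR146aKO libraries of the same pair. Rbm3 was at 165, 178 and 98.3 CPM in miR146aKO and 333, 319.5 and 392 CPM in miR146aKO_Runx1mut, a difference close in size to that with intact miR-146a (log2 fold change 1.24, SE 0.34, against 1.31). Serpinb1a was at 124, 115 and 112 CPM in miR146aKO and 462, 141 and 222 CPM in miR146aKO_Runx1mut, and Grb10 at 66.7, 2.42 and 2.68 CPM in miR146aKO and 4.48, 4.98 and 0.243 CPM in miR146aKO_Runx1mut, where 1 miR146aKO library held nearly all of the level. Srsf2 was higher in this pair as well (log2 fold change 0.72, SE 0.30), 1 of 10 higher among the 15 genes of its list.

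Dok3 was at 98.9, 69.4 and 82.5 CPM in miR146aKO and 20.2, 24.7 and 32.7 CPM in miR146aKO_Runx1mut, so that mutant cells were lower here (log2 fold change -1.69, SE 0.56) and higher with intact miR-146a. Hvcn1 was at 143, 259 and 222 CPM in miR146aKO and 79.1, 35.4 and 59.4 CPM in miR146aKO_Runx1mut and Grap at 179.5, 290.1 and 639 CPM in miR146aKO and 10.9, 60.6 and 38.3 CPM in miR146aKO_Runx1mut, both high in miR146aKO. Vwf was at 7.59, 1.45 and 1.95 CPM in miR146aKO and 1.03, 66.6 and 93.1 CPM in miR146aKO_Runx1mut and Atg9b at 0.316, 0.242 and 0.243 CPM in miR146aKO and 26.5, 3.91 and 4.12 CPM in miR146aKO_Runx1mut. The interaction term, which tests the difference between the 2 effects, was called for 3 of 12744 genes (0.0235%) and had an unadjusted p under 0.05 for 9.46%. The called genes were Dok3 (adjusted p = 0.0257), Hvcn1 (adjusted p = 0.0457) and Cd2 (adjusted p = 0.00202). Dok3 and Hvcn1 were picked on 1 of the 2 effects, so their interaction is not independent of that choice. The term called 6 genes without A042, 2 without A051 and 1 without any one of the other 10 libraries, A031 among them.

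**Figure D4:**
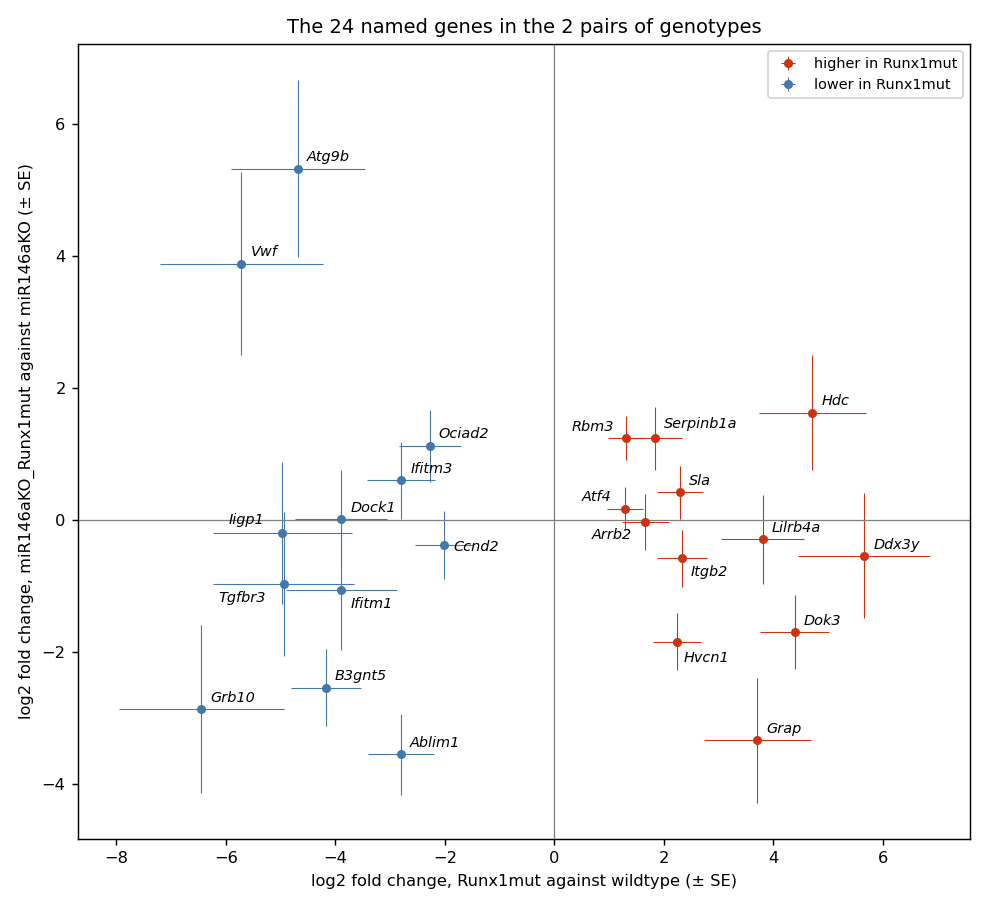
Log2 fold change of the 24 named genes for Runx1mut against wildtype (x axis) and for miR146aKO_Runx1mut against miR146aKO (y axis), each with its standard error, and genes coloured by their direction on the x axis. B3gnt5, Ablim1 and Grb10 lie low on both axes, while Vwf and Atg9b are low on the x axis and high on the y axis.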

How the data were processed

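The authors deposited the reads counted for 24421 gene symbols as 1 table of raw counts, in which each of the 12 libraries has a column. Per the labels' protocols, RNA of sorted cells was amplified with the NuGEN Ovation v2 system and made into Nextera XT libraries. This chemistry does not mark strand. The submitters' processing notes list HISAT2 2.0.4, the counter featureCounts 1.5.2, the quality tool FastQC 0.11.2 and build mm10, per the labels. For the annotation, the strand setting and reads with several matches, the choice made is not given in the sources used here. Columns were matched to genotypes through the deposited sample sheet, which carries no replicate number, so libraries are named by their column headings.

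Here edgeR 4.0.16 (R 4.3.3) was run on the counts as deposited: TMM scaling, the default low-count filter by genotype (12744 genes kept) and a quasi-likelihood fit over all 12 libraries, with 8 residual degrees of freedom. The contrasts were Runx1mut against wildtype, miR146aKO_Runx1mut against miR146aKO, and their difference. Calls required an adjusted p (Benjamini-Hochberg, over all genes tested) under 0.05. Standard errors are the log2 fold change divided by the square root of its F statistic. The common biological coefficient of variation was 0.809. Levels are CPM with TMM factors, and list levels use a prior count of 2. The 95% intervals and the floor of 3 counts cover counting error only, because reads of amplified cDNA do not each stand for a molecule.

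The genes and the 39 lists were chosen with earlier results of these data known. Named were the 12 higher and 12 lower genes of smallest unadjusted p with a mean log2 CPM of at least 2, groups that did not overlap and no predicted or clone-based symbol. Runx1, Runx2, Runx3, Cbfb, Kit, Ly6a and Mir146 were always named, and up to 5 members of smallest p in each list described. Not all 39 lists are described. Positions come from GENCODE M21 (GRCm38), which held 23376 of the symbols (95.7%), and start windows from RefSeq (GRCm38.p6). Alternatives were DESeq2 1.42.0, limma-voom (limma 3.58.1), DESeq2-type size factors in edgeR, no count filter, the 6 libraries alone, Rn45s left out, a Y-linked covariate (the mean level of 4 Y-linked genes) and leaving out each library. The edgeR step was tested on simulated data. A protein sequence of Runx1 was not used here.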

Additional observations from a re-analysis of the deposited data

Results flagged for a closer look

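The difference between the Runx1 effects in libraries not labelled and labelled as lacking miR-146a passed an adjusted p of 0.05 for 3 genes by the edgeR interaction term. For Dok3, an immune receptor adaptor, it was -6.08 on the log2 scale (SE 0.84, adjusted p = 0.0257). For Hvcn1, a proton channel, it was -4.07 (SE 0.61, adjusted p = 0.0457). For Cd2, an adhesion receptor of lymphocytes, it was -13.41 (SE 1.40, adjusted p = 0.00202). Cd2 rests on few counts in the pair with intact miR-146a, 39 in Runx1mut and 1 in wildtype, a ratio of 36.9 (95% counting interval 6.25 to 1490). All 3 genes were higher in Runx1mut than in wildtype and lower in miR146aKO_Runx1mut than in miR146aKO. B lineage list levels were 4.50 to 7.76 in the miR146aKO libraries and 0.18 to 2.93 in the other 9, and their part in these differences was not tested. The library A031, labelled miR146aKO_Runx1mut, had 14 Mir146 counts, and without it 1 gene passed.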

How the results depend on the processing

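For Runx1mut against wildtype DESeq2 called 117 genes and edgeR without a count filter 162, with 1254 at an unadjusted p under 0.05. The number called was 0 with limma-voom, DESeq2-type size factors, the 6 libraries alone, Rn45s left out or the Y-linked covariate (706 to 853 genes at an unadjusted p under 0.05), and 0 to 2 when 1 library was left out. The 2 calls, Dok3 and Anxa1, appeared without A042. At an unadjusted p under 0.05 there were 481 (without A021) to 982 genes (without A042). The difference between backgrounds was called for 168 genes by DESeq2, 268 without a count filter and 0 by limma-voom, and for 1 to 6 with 1 library left out. The cause of these differences was not tested. Some uncalled fold changes turned sign. The log2 fold change of Runx1 was -0.28 and of Runx2 -0.24 with the Y-linked covariate. With 1 library left out it ran from -0.12 to 0.72 for Runx1, -1.66 to 0.28 for Kit, -0.56 to 0.48 for Ly6a and -0.40 to 0.10 for Runx3. No paired analysis was possible because the count columns carry no replicate number.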
